A study of Mus musculus with 5 samples.

Results

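The malate-aspartate and glycerol phosphate shuttles are described here in tibialis anterior (TA), a fast-twitch leg muscle, through the 7 genes Mdh1, Mdh2, Got1, Got2, Gpd1, Gpd2 and Gpd1l. The genes were taken by symbol from the deposited expression table, where 7 of 17015 entries carry these names, and all 7 passed the minimum of 0.5 mean FPKM used for testing. The RNA came from TA of male mice 8 weeks of age, from the skmNrip1-/- line, in which Cre driven by the myogenin promoter deletes a floxed part of Nrip1 in skeletal muscle. By the study's account, that part is the last exon, which holds the whole coding sequence and the untranslated region after it. Nrip1 encodes RIP140, a coregulator of nuclear receptors. Per the study's methods, the WT control mice are littermates without Cre from crosses with Nrip1 fl/fl mice on a C57BL/6J background. There were 3 WT control libraries and 2 libraries labelled skmNrip1-/-, whereas the study's legend describes groups of equal size. The comparison asks which transcripts differ between the genotypes in muscle of untrained mice.

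NADH made by glycolysis in the cytosol cannot cross the inner mitochondrial membrane, and both shuttles carry its electrons across. In the malate-aspartate shuttle, cytosolic malate dehydrogenase (Mdh1) reduces oxaloacetate to malate, which enters the matrix and is oxidized again by mitochondrial malate dehydrogenase (Mdh2). The aspartate aminotransferases Got1, in the cytosol, and Got2, in the matrix, return the carbon skeletons as aspartate and 2-oxoglutarate. In the glycerol phosphate shuttle, cytosolic Gpd1 turns dihydroxyacetone phosphate into glycerol 3-phosphate, and Gpd2, on the outer face of the inner membrane, oxidizes it and passes the electrons to ubiquinone. Gpd1l is a cytosolic paralog of Gpd1. Glycolytic fast fibers are known for high glycerol phosphate dehydrogenase activity, and oxidative fibers and heart for greater use of the malate-aspartate route.

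The values are FPKM, fragments divided by transcript length and scaled between libraries, so that levels can be compared between genes. Their sum was 969144 to 1144714 in the WT control libraries and 1286254 to 1288038 in the libraries labelled skmNrip1-/-. How many fragments were sequenced for each library is unknown. Transcripts encoded by mtDNA made up 45.4% to 50.7% of the sum in WT control TA and 58.6% to 60.9% in the libraries labelled skmNrip1-/-. Library values are listed in replicate order throughout. Nrip1 itself measured 4.64, 7.69 and 6.55 FPKM in the WT control libraries, against 25.3 and 22.5 in those labelled skmNrip1-/- (log2 fold change 1.94, SE 0.21, limma adjusted p 0.0261). The adjusted p by limma was 0.146 without WT control replicate 3, and 0.204 and 0.142 without replicate 1 or 2 labelled skmNrip1-/-, with log2 fold changes of 1.98, 1.85 and 2.02. The targeted gene was thus higher under the knockout label, although the deleted part holds its coding sequence. There is 1 value for the whole gene and none for that part, and every direction below rests on the labels. The fast-fiber genes Myh4, Tnnt3, Mylpf and Pvalb were abundant in all libraries. In such bulk tissue, fewer cells of a type and less RNA per cell cannot be told apart.

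In the GENCODE M21 annotation of GRCm38, the 7 genes lie on 7 different chromosomes. Mdh1 (ENSMUSG00000020321) is at chromosome 11, 21556787 to 21572367, minus strand, and Mdh2 (ENSMUSG00000019179) at chromosome 5, 135778480 to 135790398, plus strand. Got1 (ENSMUSG00000025190) is at chromosome 19, 43499752 to 43524605, minus strand, and Got2 (ENSMUSG00000031672) at chromosome 8, 95864134 to 95888547, minus strand. Gpd1 (ENSMUSG00000023019) is at chromosome 15, 99717515 to 99725005, plus strand. Gpd2 (ENSMUSG00000026827) spans 133085 bases of chromosome 2, 57237635 to 57370719, plus strand, and is the longest of the genes. Gpd1l (ENSMUSG00000050627) is at chromosome 9, 114899341 to 114933987, minus strand. The longest coding transcripts of Mdh1 and Gpd2 have the lowest GC content, 45.7% and 46.5%, and that of Gpd1 the highest, 56.9%. Genes on the other strand share 52 exonic bases with Mdh1 (Wdpcp), 434 with Got2 (Gm45760), 384 with Gpd1 (Gm16537) and 487 with Gpd2 (A930012O16Rik), and strand use in the quantification is not stated. Got2 has a processed pseudogene, Got2-ps1, which stood between 0.0379 and 0.166 FPKM across the 5 libraries.

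Since RIP140 acts through nuclear receptors, the RefSeq promoter windows (GRCm38.p6, 250 bases before to 50 after the start) were searched on both strands for AGGTCA, the half-site that nuclear receptors bind. They were also searched for TCAAGGTCA, the estrogen-related receptor element, which contains AGGTCA, for the cyclic AMP response element TGACGTCA and for the palindromic site of nuclear respiratory factor 1. Windows were found for Mdh1, Mdh2, Got1, Got2, Gpd2 (2 windows) and Gpd1l. The 3 matches found are printed 5′ to 3′ on the gene's strand, with the match in capitals, because no other window of these genes held one. In Got2 the half-site is in the opposite orientation. The stretches of Got2 and Mdh2 lie before the RefSeq starts used here but inside the GENCODE gene spans given above.
Got1, chr19:43524826-43524855, minus strand: cccagaAGGTCAggaggttgtcctctgggg
Got2, chr8:95888487-95888516, minus strand: tgcgagtttccaTGACCTccgtggaggcgt
Mdh2, chr5:135778511-135778540, plus strand: ggagagaatcgTGACGTCAggcctcgctcg
The half-site, in either orientation, occurs in 16.3% of the 32851 windows in the table, and TGACGTCA in 1.79%. TCAAGGTCA occurs in 0.423% and the nuclear respiratory factor 1 site in 0.971% of windows, and neither is in a window of these genes. A match is a string of letters and not a shown binding site, and its absence speaks only of these windows.

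The order of the levels was the same in all 5 libraries, from Mdh2 through Got1, Got2, Gpd1, Mdh1 and Gpd2 down to Gpd1l. Mean FPKM in WT control TA was 654 ± 38.8 (SD, n = 3) for Mdh2, which ranks 99 of 17015 entries, and 8.22 ± 1.15 (SD, n = 3) for Gpd1l, which ranks 5089. Got1 and Got2 were neighbours whose WT control libraries overlapped, although Got1 was above Got2 within each library. The other neighbours in the order did not overlap among the WT control libraries. Mitochondrial Mdh2 thus exceeded cytosolic Mdh1 in FPKM, whereas cytosolic Gpd1 exceeded mitochondrial Gpd2.

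None of the 7 genes was called different between the genotypes in either direction by limma across 12148 genes, where a call needed a fold change of 1.2 or more and a Benjamini-Hochberg adjusted p not above 0.05. The background of such calls was 0.37% of tested genes higher and 0.0823% lower in the libraries labelled skmNrip1-/-. Before adjustment, 4 of the 7 had a p of 0.05 or less, Mdh1, Got1, Got2 and Gpd1l, all with higher values under the knockout label, where 6.57% of tested genes fell in that direction and 5.33% in the other. That count depended on the setting, and the shares of all tested genes at the other settings are not given here. At the TPM scale, where the all-gene median log2 fold change was -0.29, it was 0 of 7 higher and 1 lower, Gpd2. Scaled over the genes not encoded by mtDNA, with an all-gene median of 0.07, it was 5 higher and 0 lower. Without WT control replicate 1 it was 4 higher and 1 lower, again Gpd2. Without replicate 1 labelled skmNrip1-/- it was 0, and without replicate 2 so labelled it was 2. Both libraries labelled skmNrip1-/- were above every WT control library for 5 of the 7 genes, those 4 and Mdh2, as for 15.8% of tested genes. The opposite, both below every WT control library, held for none of the 7 genes and for 14.4% of tested genes. The median log2 fold change of the 7 genes was 0.43, beside -0.00054 for all tested genes. The 4 malate-aspartate enzymes, Gpd1l and Gpd1 had log2 fold changes above 0, and Gpd2 one below 0. The libraries overlapped for Gpd1 and Gpd2, the shuttle pair of glycerol phosphate. Gpd1, at 0.13, lay close to Mdh2, at 0.18, and the 95% intervals of both spanned 0.

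**Figure D1:**
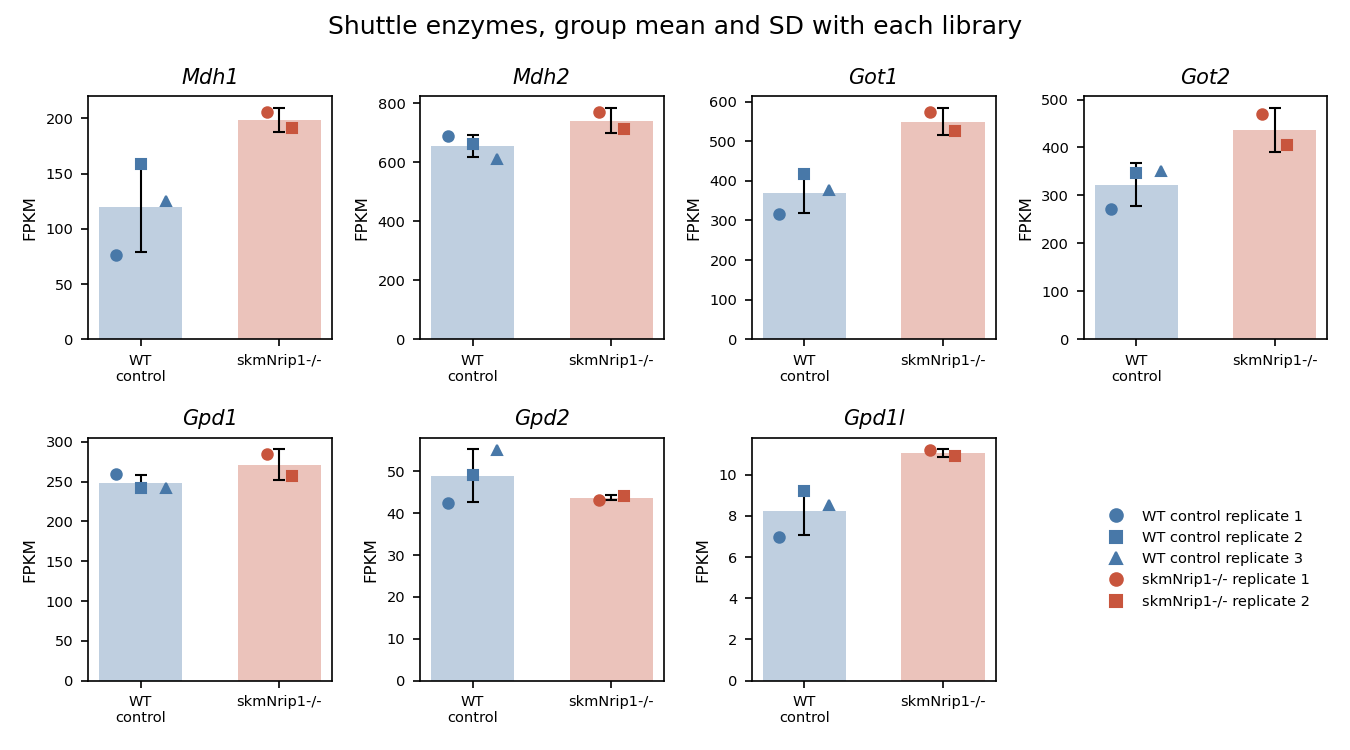
FPKM of each shuttle enzyme in WT control TA (blue, 3 libraries) and in TA labelled skmNrip1-/- (red, 2 libraries). Bars give the group mean, error bars the SD and symbols the libraries by replicate number, each panel with its own axis from 0. The red symbols lie above all blue symbols for Mdh1, Mdh2, Got1, Got2 and Gpd1l, and overlap them for Gpd1 and Gpd2.

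Mdh1, the cytosolic malate dehydrogenase, measured 76.7, 158.7 and 125.1 FPKM in the WT control libraries, against 206.2 and 191.1 in those labelled skmNrip1-/-. Both of the latter were above all WT control libraries, and WT control replicate 1 stood well below the other WT control libraries. The log2 fold change of 0.79 was the largest of the 7 genes (SE 0.29, 95% interval 0.10 to 1.47, limma adjusted p 0.356). Without WT control replicate 1 it was 0.49.

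Got1, the cytosolic aspartate aminotransferase, measured 315.7, 417.7 and 378.0 FPKM in the WT control libraries, against 573.6 and 525.0 in those labelled skmNrip1-/-. The groups did not overlap, and WT control replicate 1 was again the lowest. Its log2 fold change of 0.58 had the smallest adjusted p of the 7 genes (SE 0.15, 95% interval 0.22 to 0.93, limma adjusted p 0.224).

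Got2, its mitochondrial counterpart, measured 270.7, 346.3 and 350.9 FPKM in the WT control libraries, against 468.9 and 404.6 in those labelled skmNrip1-/-. The groups did not overlap here either. The log2 fold change was 0.44 (SE 0.15, 95% interval 0.07 to 0.81, limma adjusted p 0.340).

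Mdh2, which serves the TCA cycle as well as the shuttle, measured 688.3, 662.9 and 612.1 FPKM in the WT control libraries, against 770.6 and 710.8 in those labelled skmNrip1-/-. Here WT control replicate 1 was the highest of the WT control libraries. The groups did not overlap, but the ratio of their means was only 1.13, and the log2 fold change of 0.18 had a 95% interval from -0.10 to 0.46 (limma adjusted p 0.627). The deposited scaling matters for this small value. When the libraries were rescaled to TPM, so that all sum to the same total with the mtDNA-encoded transcripts included, the log2 fold change of Mdh2 became -0.12, or 0.17 over the all-gene median of that scale (-0.29).

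In the glycerol phosphate shuttle, Gpd1 measured 259.8, 241.6 and 242.6 FPKM in the WT control libraries, against 285.0 and 257.4 in those labelled skmNrip1-/-. The second of these lay below WT control replicate 1, and the groups overlapped. The log2 fold change was 0.13 with a 95% interval from -0.13 to 0.39 (limma adjusted p 0.716). At the TPM scale the value was -0.17, which exceeds the all-gene median of that scale by 0.12.

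Gpd2, the mitochondrial enzyme that hands electrons to ubiquinone, measured 42.5, 49.1 and 55.2 FPKM in the WT control libraries, against 43.3 and 44.2 in those labelled skmNrip1-/-. Both of the latter fell inside the WT control range. Gpd2 was the only one of the 7 genes with a log2 fold change below 0, at -0.15, with a 95% interval from -0.47 to 0.16 (limma adjusted p 0.724).

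Gpd1l measured 6.95, 9.18 and 8.53 FPKM in the WT control libraries, against 11.2 and 10.9 in those labelled skmNrip1-/-. Its groups did not overlap, while those of its far more abundant paralog Gpd1 did. The log2 fold change was 0.43 (SE 0.14, 95% interval 0.09 to 0.78, limma adjusted p 0.322).

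Ratios within a library do not depend on the scaling between libraries, and so the mitochondrial enzyme of each pair was set against the cytosolic one, and Gpd1l against Gpd1. The Mdh2/Mdh1 ratio of FPKM came to 8.97, 4.18 and 4.89 in the WT control libraries, against 3.74 and 3.72 in those labelled skmNrip1-/-. Cytosolic Mdh1 thus took a larger part of the malate dehydrogenase RNA in both libraries labelled skmNrip1-/- than in any WT control library. The difference in mean log2 ratio was -0.61, and -0.28 without WT control replicate 1. The Got2/Got1 ratio came to 0.857, 0.829 and 0.928 in the WT control libraries, against 0.817 and 0.771 in those labelled skmNrip1-/-, a log2 difference of -0.13. These groups also did not overlap, in the same direction, but by a narrow margin.

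The Gpd2/Gpd1 ratio came to 0.164, 0.203 and 0.228 in the WT control libraries, against 0.152 and 0.172 in those labelled skmNrip1-/-. These values overlapped. The Gpd1l/Gpd1 ratio came to 0.0268, 0.0380 and 0.0352 in the WT control libraries, against 0.0392 and 0.0424 in those labelled skmNrip1-/-. Here both libraries labelled skmNrip1-/- were above all WT control libraries. In exact two-sided permutation tests over the libraries, p was 0.2 for Mdh2/Mdh1, Got2/Got1 and Gpd1l/Gpd1 and 0.3 for Gpd2/Gpd1 (adjusted over the 4 ratios, 0.267 and 0.3). The 10 splits of 3 against 2 libraries allow no p below 0.1, so that the design could not reach 0.05.

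**Figure D2:**
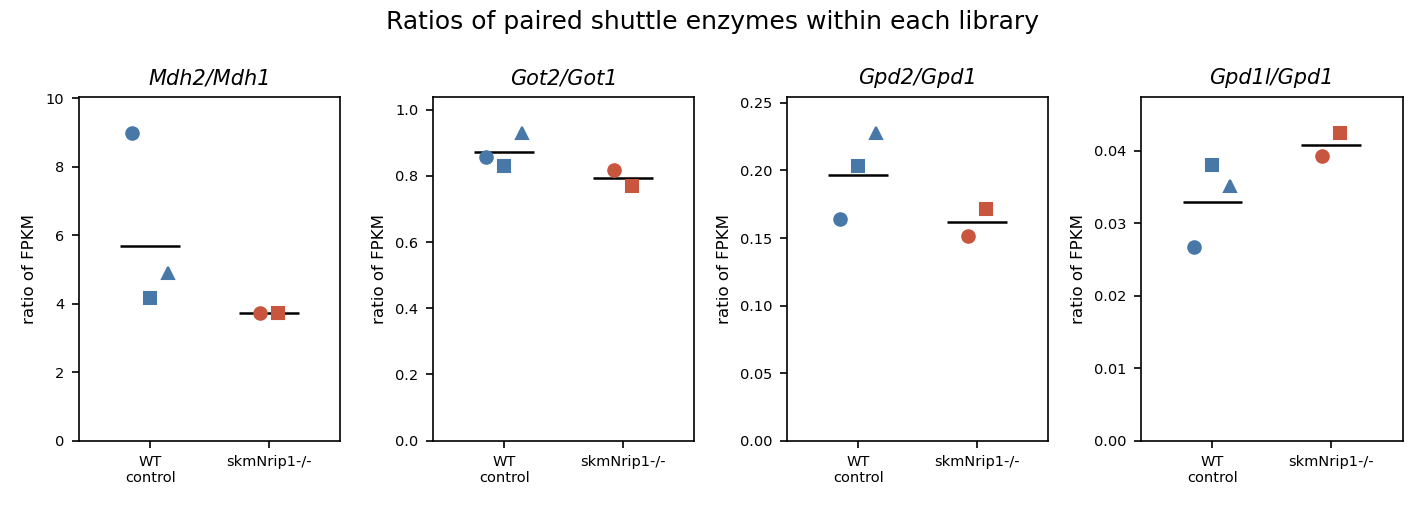
Ratio of FPKM between 2 shuttle enzymes within each library, in WT control TA (blue) and TA labelled skmNrip1-/- (red), with axes from 0. Symbols are libraries by replicate number and bars the geometric mean of each group. The Mdh2/Mdh1 ratio spans 4.18 to 8.97 in WT control TA and lies at 3.72 and 3.74 under the knockout label.

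The malate-aspartate shuttle also needs 2 carriers of the inner membrane, the 2-oxoglutarate/malate carrier Slc25a11 and an aspartate/glutamate carrier, Slc25a12 or Slc25a13. Slc25a11 measured 207.2, 207.0 and 204.7 FPKM in the WT control libraries, against 245.8 and 233.0 in those labelled skmNrip1-/- (log2 fold change 0.21, limma adjusted p 0.463). Slc25a12, the main aspartate/glutamate carrier of muscle, measured 248.1, 266.9 and 270.7 FPKM in the WT control libraries, against 327.8 and 296.3 in those labelled skmNrip1-/- (log2 fold change 0.25, limma adjusted p 0.442). Slc25a13, the form known best from liver, measured 0.433, 0.487 and 0.486 FPKM in the WT control libraries, against 0.910 and 0.913 in those labelled skmNrip1-/- . Its WT control mean of 0.469 FPKM lies under the minimum of 0.5, so that it was tested only through the group where it is higher, and no test of it is given. Slc25a11 and Slc25a12, well over the minimum, were above every WT control library in both libraries labelled skmNrip1-/-, as were 15.8% of all tested genes, and neither was called.

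The genes of neighbouring reactions were taken from 8 lists with 51 tested entries, of which 2 were called higher, Ldhb and Idh2, and none lower, beside 0.37% and 0.0823% of all tested genes. Of the entries, Slc25a13 and Asns passed the minimum only through the group where they are higher. Among the other 49, 16 were higher and 7 lower at an unadjusted p of 0.05 or less, beside 6.57% and 5.33% of all tested genes, and their median log2 fold change was 0.12. The lists were chosen with earlier results of these data known, so these counts are a description only. Among the cytosolic enzymes that make and use NADH, Ldhb was higher and Gapdh and Ldha were lower in value. Ldhb, the lactate dehydrogenase subunit of heart and oxidative fibers, rose in the libraries labelled skmNrip1-/-, where its mean was 199 ± 21.3 FPKM (SD, n = 2) beside 93.9 ± 10.4 (SD, n = 3) in WT control TA (log2 fold change 1.09, SE 0.13, limma adjusted p 0.0376). With limma, its adjusted p was 0.0864 without WT control replicate 1, 0.192 without WT control replicate 3, and 0.2695 and 0.201 without replicate 1 or 2 labelled skmNrip1-/-. Ldha, the subunit of glycolytic fibers, had a log2 fold change of -0.37 and the glycolytic enzyme Gapdh one of -0.57, each with an unadjusted p of 0.05 or less and with both libraries labelled skmNrip1-/- below every WT control library. Ldhd, the mitochondrial D-lactate dehydrogenase, which does not use NADH, had one of 0.39 (limma adjusted p 0.256).

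**Figure D3:**
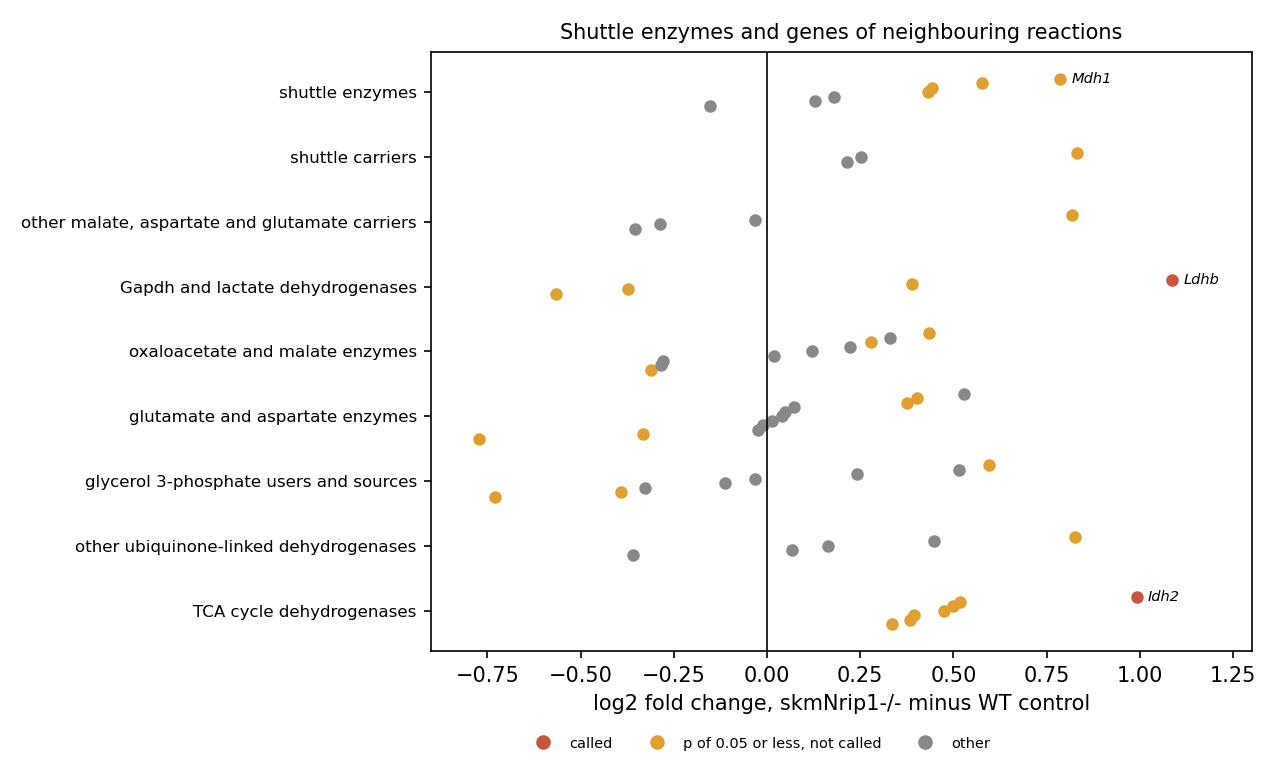
Log2 fold change, skmNrip1-/- minus WT control, of the shuttle enzymes and of the tested genes of neighbouring reactions, 1 point per gene. Red points were called, yellow points had an unadjusted p of 0.05 or less only, and grey points neither. The 7 genes of TCA cycle dehydrogenases all lie between 0.34 and 0.99, while the other lists except the 3 carriers have points on both sides of 0. Slc25a13, at 0.83 among the carriers, and Asns, at 0.53, are plotted although tested only through the higher group, and their colours are not read as tests.

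All 7 listed genes of the isocitrate and 2-oxoglutarate dehydrogenases, enzymes of the TCA cycle, had an unadjusted p of 0.05 or less and values above every WT control library, beside 6.57% and 15.8% of all tested genes, with a median log2 fold change of 0.48. These genes, like those of the other lists, were chosen with earlier results of these data known. Rescaled to TPM, where the all-gene median was -0.29, 1 of the 7 had such a p, Idh2. The share of all tested genes at that scale is not given here. Without replicate 1 labelled skmNrip1-/-, the 7 log2 fold changes ran from 0.29 to 0.94, and without replicate 2 so labelled from 0.38 to 1.04. Each of those fits leaves 1 library under that label. Besides Idh2, the log2 fold changes were 0.50 for Idh3a, 0.34 for Idh3b and 0.38 for Idh3g, the subunits of the NAD-dependent isocitrate dehydrogenase, and 0.52 for Ogdh, 0.39 for Dlst and 0.48 for Dld, those of 2-oxoglutarate dehydrogenase. Of these, Idh2, the NADP-dependent isocitrate dehydrogenase of the matrix, rose and was called (log2 fold change 0.99, limma adjusted p 0.0485). With limma, its adjusted p was 0.108 without WT control replicate 1, 0.230 without WT control replicate 3, and 0.359 and 0.328 without replicate 1 or 2 labelled skmNrip1-/-. Mdh2, a dehydrogenase of the same cycle, had the smaller value of 0.18 given above. Its partners in the handling of oxaloacetate and malate were mixed. Fumarase (Fh1) had a log2 fold change of 0.44 and citrate synthase (Cs) one of 0.28, whereas pyruvate carboxylase (Pcx), which makes oxaloacetate from pyruvate, had one of -0.31, each with an unadjusted p of 0.05 or less only. The malic enzymes Me1, Me2 and Me3 had log2 fold changes of -0.28, 0.33 and 0.22.

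Among 11 tested genes of glutamate and aspartate metabolism, none was called, beside 0.37% higher and 0.0823% lower of all tested genes. At an unadjusted p of 0.05 or less, 2 were higher and 2 lower, beside 6.57% and 5.33% of all tested genes. The alanine aminotransferases differed in direction. Mitochondrial Gpt2 measured 108.2, 93.5 and 100.8 FPKM in the WT control libraries, against 60.8 and 57.1 in those labelled skmNrip1-/- (log2 fold change -0.77, SE 0.11, limma adjusted p 0.0513). Cytosolic Gpt had a log2 fold change of 0.37 (limma adjusted p 0.363). Gpt2 thus lay on the other side of 0 from Got2, the aminotransferase of the same compartment. Asparagine synthetase (Asns), at 0.312 to 0.575 FPKM in WT control TA and 0.668 to 0.723 under the knockout label, was tested only through the higher group. Glutamate dehydrogenase (Glud1) had a log2 fold change of 0.40 and glutamine synthetase (Glul) one of -0.33. The mitochondrial glutamate carrier Slc25a22 measured 7.65, 17.1 and 13.6 FPKM in the WT control libraries, against 20.0 and 23.0 in those labelled skmNrip1-/- (log2 fold change 0.82, limma adjusted p 0.385). As for Mdh1, WT control replicate 1 was the lowest by far, and without it the log2 fold change was 0.49. The other 3 tested genes of its list had values below 0, with Slc25a1, the citrate carrier, at -0.35 the lowest.

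For the genes that make or use glycerol 3-phosphate and its precursor, none of 8 tested entries was called. The shares of all tested genes called were 0.37% higher and 0.0823% lower. At an unadjusted p of 0.05 or less, 1 was higher and 2 lower, beside 6.57% and 5.33% of all tested genes. Triose phosphate isomerase (Tpi1), which exchanges dihydroxyacetone phosphate with the next glycolytic intermediate, had a log2 fold change of -0.39 (limma adjusted p 0.344). Aldoa, the muscle aldolase, is in the table under 2 gene IDs, with log2 fold changes of -0.33 for the abundant entry and -0.73 for the minor one (ENSMUSG00000114515). Glycerol kinase (Gk), at 0.67 to 0.85 FPKM in WT control TA, had one of 0.59. Gpam, the mitochondrial acyltransferase that starts triglyceride synthesis from glycerol 3-phosphate, had one of 0.24 (limma adjusted p 0.756). Of the other dehydrogenases that pass electrons to ubiquinone, as Gpd2 does, Etfdh of the fatty acid oxidation pathway had a log2 fold change of 0.83 (limma adjusted p 0.136), against -0.15 for Gpd2. Sdha had one of 0.45, Dhodh 0.16, Sqor 0.07 and Prodh -0.36, none with a p of 0.05 or less.

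Of the 7 genes, all but Gpd1 are also set here beside the tested genes with the nearest profile, measured by the root mean square difference of log2(FPKM + 0.1) over the 5 libraries after centring each gene on its mean. The nearest to Mdh1 was Ucp3, a mitochondrial carrier of muscle, at a difference of 0.069, followed by Esrrb and Pdp2. Ucp3 measured 41.9, 85.7 and 63.8 FPKM in the WT control libraries, against 98.6 and 97.7 in those labelled skmNrip1-/-, with the same low WT control replicate 1 as Mdh1. The nearest to Got1 were Pus10, Selenop and Ogdh, a subunit of the 2-oxoglutarate dehydrogenase of the TCA cycle, at 0.041 to 0.046. The nearest to Got2 were Tmed5, Tmem143 and Echdc1 (0.028 to 0.036), and those to Mdh2 Gcdh, Pipox and Ube2q1 (0.022 to 0.026). Gpd2 was followed most closely by Jun, Islr and Sympk (0.020 to 0.026), and Gpd1l by Sco1, Cluh and Miga2 (0.014 to 0.030). With 5 libraries and 12148 genes, close profiles are easily found, and the difference is a description of these libraries only.

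Markers of other cells and fibers were read in the same libraries. WT control replicate 1 had the lowest value for 5 of the 7 shuttle genes, and also for 4 of the 7 TCA cycle dehydrogenases. It had the highest for 8 of 9 fast-fiber genes, and the share over all tested genes is not given for either extreme. Summed over those 9 genes, the level was 81256 to 112843 FPKM in WT control TA and 75567 to 78507 in the libraries labelled skmNrip1-/-. Of the 9, 4 lay below every WT control library in both of the latter, beside 14.4% of all tested genes. Only Actn3 had an unadjusted p of 0.05 or less. The 7 slow-fiber genes summed to 111.9 to 316.3 FPKM in WT control TA and 121.7 to 123.7 under the knockout label, and Myh7, their defining myosin, was between 0.449 and 1.72 FPKM in all libraries. In that list, Myl2 had a log2 fold change of 3.46 and Myl3 one of -1.24, each at an unadjusted p of 0.05 or less. For blood, all 5 genes had a log2 fold change above 0, and 4 were above every WT control library, beside 15.8% of all tested genes. The sum of the 5 was 511 to 764 FPKM in WT control TA and 827 to 996 in the libraries labelled skmNrip1-/-. Of the endothelial, macrophage, fibroblast and nerve genes, none had an unadjusted p of 0.05 or less, and their sums overlapped between the groups. Of 6 general muscle genes, myoglobin (Mb) alone did, with a log2 fold change of 0.73. No marker was at 0 in any library. The part of fibers and blood in the values of the shuttle genes was not tested. Fat tissue is rich in Gpd1. Of 6 tested adipocyte genes, none was above every WT control library, beside 15.8% of all tested genes. Only Car3, which muscle also expresses, was below, as were 14.4% of all tested genes. The adipocyte sums were 1403 to 2042 FPKM in WT control TA and 858 to 1100 under the knockout label. Most of those sums is Car3, and the other 7 adipocyte genes in the table summed to 133 to 202 FPKM in WT control TA and 158 to 163 under the knockout label, which overlap. Adipoq, a defining adipocyte gene, was at 0.627 to 1.35 FPKM in WT control TA and at 1.03 to 1.16 under the knockout label.

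**Figure D4:**
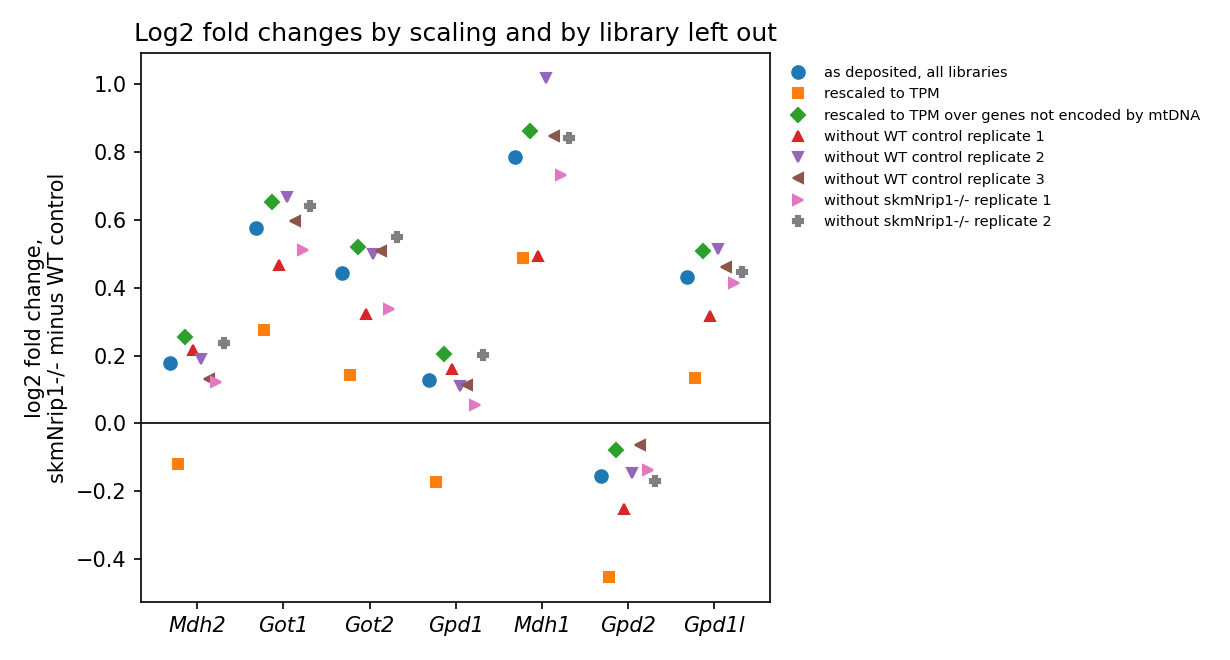
Log2 fold change of each shuttle enzyme, skmNrip1-/- minus WT control, as deposited, after rescaling the libraries, and with each library left out in turn. The points of Mdh1, Got1, Got2 and Gpd1l are above 0 and those of Gpd2 below 0 in every setting shown, and Mdh2 and Gpd1 cross 0 when rescaled to TPM.

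The sign of the log2 fold change of Mdh1, Got1, Got2 and Gpd1l, and that of Gpd2, was the same under every alternative run. That of Mdh2 and Gpd1 was not, as it turned below 0 at the TPM scale. That scale moved the median of all genes to -0.29. Rescaling each library by its median ratio to the geometric mean of the libraries changed almost nothing. Mdh1 stayed at 0.79 and the all-gene median at -0.00054, so that the deposited values already stood close to that scale. Scaled over the genes not encoded by mtDNA, the log2 fold changes were 0.86 for Mdh1, 0.65 for Got1, 0.52 for Got2, 0.51 for Gpd1l, 0.26 for Mdh2, 0.20 for Gpd1 and -0.08 for Gpd2, with a median of 0.07 for all genes.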

How the data were processed

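The authors sequenced TA RNA as 150-bp read pairs, quantified it with Salmon 1.10.2 on mm10, summarized it to genes with tximport and deposited FPKM per gene and library. How the FPKM were computed and from which annotation release is not given in the sources used here. Their DESeq2 1.44.0 fold changes and adjusted p-values, in the same table, were not used. Libraries were grouped by GEO's labels. Depth is unknown, so no counting intervals are given.

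Values were compared with limma 3.58.1 in R 4.3.3 on log2(FPKM + 0.1), using lmFit and a trended eBayes on the 5 libraries without covariates. The 12148 genes whose mean reached 0.5 FPKM were tested, and Benjamini-Hochberg adjustment covered all of them. For genes of low FPKM, this pseudocount makes fold changes too small. The SE, intervals and p-values of limma use the spread between these libraries, with each gene's variance drawn toward a trend over all tested genes. They thus do not measure that gene's own spread alone. The fit was tested on simulated data of the same size. Values were drawn independently for each gene from a normal distribution, with the SD taken from these libraries. The simulation held no outlying library and no shift shared by genes, so its counts need not hold for these data. Calls were made for 80 of 98 genes with a log2 change of 2, for 45 of 102 with one of 1, and for 6 of 11948 left as they were. The log2 fold changes of the 7 genes were all smaller than 1, and the simulation does not show how often such changes are called. Ratios were tested by exact permutation (Python 3.11.15, scipy 1.17.1). GENCODE M21 holds 17008 of the 17015 gene IDs. Named are the 7 genes, Nrip1, listed genes that were called, had a p of 0.05 or less or were at the ends of their list, and the 3 nearest profiles per gene, leaving out symbols of the Gm and Rik kinds. The nearest profiles of Gpd1 are not reported here. Some other genes of the lists were named after their values were seen. One list, fixed as enzymes of cytosolic NADH, also held the mitochondrial Ldhd. The genes and lists were chosen with earlier results of these data known.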

Additional observations from a re-analysis of the deposited data

How the results depend on the processing

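The number of fragments is unknown and 3 libraries stand against 2, which limits every result here. No shuttle gene was called in either direction under any of the 17 alternatives. Rescaled to TPM, the log2 fold change turned to -0.12 for Mdh2, -0.17 for Gpd1 and -0.020 for Cs. With the libraries left out in turn, the log2 fold change ranged from 0.49 to 1.02 for Mdh1, 0.47 to 0.67 for Got1, 0.32 to 0.55 for Got2, 0.12 to 0.24 for Mdh2, 0.05 to 0.20 for Gpd1, -0.25 to -0.06 for Gpd2 and 0.32 to 0.51 for Gpd1l. The log2 difference of the ratios then ranged from -0.83 to -0.28 for Mdh2/Mdh1, -0.18 to -0.09 for Got2/Got1, -0.41 to -0.18 for Gpd2/Gpd1 and 0.16 to 0.41 for Gpd1l/Gpd1.

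Against 45 genes called higher and 10 lower in all, the calls were 22 and 3 without the intensity trend, 14 and 3 with the adjusted p held to 0.01, and 6 to 51 and 2 to 15 with a library left out (24 and 3 without WT control replicate 1, 17 and 2 without WT control replicate 3, 8 and 7 without skmNrip1-/- replicate 1, 6 and 3 without skmNrip1-/- replicate 2). The TPM scale gave 30 and 63. Of the neighbouring genes, 2 were called higher and none lower. The number higher was 0 at the TPM scale, without the trend, with the adjusted p held to 0.01, and 0 to 2 with a library left out. It was 1 with a pseudocount of 0.01, with no minimum on FPKM and at the TPM scale without mtDNA-encoded genes. The number lower was 1 with a pseudocount of 1 and with a minimum of 1 FPKM, and 2 at the TPM scale. Ldhb lost its call under 7 of 15 alternatives and Idh2 under 10, without a change of sign, and Gpt2 was called under 3. Nrip1 lost its call under 5. The cause was not tested. Fits that leave 1 library out also have fewer libraries, and in the fit without WT control replicate 2 the calls of Ldhb, Idh2 and Nrip1 were kept.

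The replicate numbers 1 and 2 are shared by the groups. Deviations from the group means of same-numbered libraries correlated at 0.0647 and 0.0952 over genes. The deviations of the 2 libraries labelled skmNrip1-/- mirror each other, so that these values cannot decide whether same-numbered libraries are paired. With the replicate number as a block, which gives WT control replicate 3 a term of its own, 18 genes were called higher and 4 lower, none of them a shuttle gene, and 0 neighbouring genes higher.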
